A study of Homo sapiens with 16 samples.

Results

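Of 5250 genes read on arrays of AsPC-1, a cell line of human pancreatic adenocarcinoma, 4 genes of programmed cell death are described here. They are the death receptor gene TNFRSF10B, the BCL2 family gene BCL2L15 and the nuclease genes DFFB and AEN. They were taken by name, as every probe set annotated to 1 of these genes alone, which gave 5 of the 6442 probe sets with a single named gene. TNFRSF10B had 2 of them and the other genes had 1 each. The genes were picked with results of these same arrays known, their differences with ICG-001 and with CTNNB1 siRNA among them, so their values are a description and carry no test.

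The cells had received 10 µM ICG-001 for 6 h (3 arrays), its vehicle DMSO for 6 h (3 arrays), ICG-001 for 24 h (3 arrays) or DMSO for 24 h (3 arrays). In a separate experiment they had been transfected for 48 h with 20 nM siRNA to CTNNB1, which encodes β-catenin (2 arrays), or with 20 nM of a control siRNA (2 arrays). ICG-001 is a compound known to block the contact of β-catenin with the coactivator CBP. All groups were the same parental line in medium with serum, and a single drug dose was used. Arrays within a group carry the label of biological replicates, but separate cultures are not stated, so the spread between arrays may be partly technical, and p-values measure only that spread.

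Cells enter apoptosis along an outer and an inner route. In the outer route the ligand TRAIL (gene TNFSF10) binds the death receptor encoded by TNFRSF10B, which assembles a complex that activates initiator caspases. In the inner route proteins of the BCL2 family decide whether the mitochondrial outer membrane becomes leaky. BCL2L15 encodes a little-studied member of that family, described in mouse as Bfk in the gut. Both routes lead to executioner caspases, which free the nuclease encoded by DFFB from its inhibitor DFFA to cut DNA between nucleosomes. AEN encodes a nuclear exonuclease linked to apoptosis, and TNFRSF10B is itself a known target of the stress factor CHOP (gene DDIT3).

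BCL2L15, DFFB and AEN had lower intensities on every ICG-001 array than on the DMSO arrays of the same time. The start-site regions of BCL2L15 and AEN, and none for TNFRSF10B or DFFB, are printed here. They come from RefSeq on build GRCh38.p14 and run from 250 bases before the transcript start to 50 bases after it, 5′ to 3′ on the gene's own strand. Capitals mark matches to an E2F motif (TTTCCCGC, TTTGGCGC, TTTCGCGC or TTTGCCGC), searched on both strands. A TCF/LEF motif (CTTTG followed by AA, AT, TA or TT) and an ATF4-C/EBP motif (TGATGNAA) were searched as well.
BCL2L15, chr1:113887532-113887831, minus strand: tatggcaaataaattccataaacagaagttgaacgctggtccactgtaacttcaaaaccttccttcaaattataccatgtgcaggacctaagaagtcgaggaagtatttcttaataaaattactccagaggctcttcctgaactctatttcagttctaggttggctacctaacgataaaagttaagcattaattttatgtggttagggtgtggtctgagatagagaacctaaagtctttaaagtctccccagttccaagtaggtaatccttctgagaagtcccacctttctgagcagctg
AEN, chr15:88621090-88621389, plus strand: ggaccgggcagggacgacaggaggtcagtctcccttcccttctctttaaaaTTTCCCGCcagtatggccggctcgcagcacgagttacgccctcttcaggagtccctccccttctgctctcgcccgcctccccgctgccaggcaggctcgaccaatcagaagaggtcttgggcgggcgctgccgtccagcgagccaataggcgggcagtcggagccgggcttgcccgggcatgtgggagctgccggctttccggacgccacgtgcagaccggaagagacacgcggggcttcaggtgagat
The AEN window held 1 E2F match starting at position -199 from the start site and no match to the other motifs, and its GC content was 66.0%. The BCL2L15 window held none of the 3 motifs, and its GC content was 39.3%. Of 35116 RefSeq start-site windows of this length, 3.31% held the E2F motif, 13.8% the TCF/LEF motif and 3.62% the ATF4-C/EBP motif. A match describes letters in the window and does not show that a factor binds there.

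The values are deposited probe set intensities on a linear scale. Their median was 20.6 to 28.6 on the 12 drug arrays and 12.7 to 13.05 on the 4 siRNA arrays. For fitted differences, 16 was added, log2 was taken and the 16 arrays were quantile-normalised, and the log2 change is that of the first group named over the second with its standard error (SE). The deposited scaling is given beside it, because that choice shifted bright genes. For the 525 brightest genes, ICG-001 over DMSO had a median log2 change after normalisation of -0.19 (6 h) and -0.13 (24 h). In the deposited scaling these medians were 0.13 and 0.22. TNFRSF10B and AEN, at percentiles 90.3 and 96.2 of mean level, belong to these. Of 13 listed epithelial markers 7 were among the genes analysed, and their summed intensity was 4908.2 to 6660.36 across the drug arrays and 936.25 to 1635.12 on the siRNA arrays. The sums hide dim markers: MUC5AC had group means of 2.42 to 3.74. With control and CTNNB1 siRNA, KRT19 read 11.8 and 10.2 and CDH1 10.5 and 15.9. Of 23 listed markers of fibroblasts, endothelium, leukocytes, acini and islets, 6 were analysed. The fibroblast marker COL1A1 read 78 and 90.6 with these siRNAs, above KRT19 and CDH1. The highest group mean of DCN was 86.4, and the other markers of this set reached at most 24.5.

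TNFRSF10B was about 2 times as high with ICG-001 as with DMSO at 6 h and differed little between them at 24 h. Its probe set 209294_x_at read 834.04, 951.21 and 878.73 with ICG-001 at 6 h, against 423.91, 448.80 and 433.62 with DMSO. Every ICG-001 array lay well above every DMSO array. At 24 h it read 409.56, 429.21 and 399.69 with ICG-001, against 413.77, 394.10 and 388.65 with DMSO, and these deposited values overlapped, though the normalised ones did not. The fitted log2 change at 6 h was 0.73 ± 0.07 (SE), and 1.00 ± 0.07 in the deposited scaling. At 24 h it was -0.23 ± 0.07 after normalisation and 0.05 ± 0.07 in the deposited scaling, so its sign depended on the scaling. The change at 24 h minus that at 6 h was -0.96 ± 0.10 after normalisation and -0.95 ± 0.10 in the deposited scaling. In bulk RNA such a difference cannot tell fewer expressing cells from less RNA per cell.

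The other TNFRSF10B probe set, 210405_x_at, gave the same picture. It read 788.39, 879.41 and 830.18 with ICG-001 at 6 h, against 440.84, 433.03 and 425.84 with DMSO, a log2 change of 0.66 ± 0.08. At 24 h its arrays read 359.12, 428.95 and 368.22 with ICG-001, against 379.33, 346.48 and 375.63 with DMSO, and they overlapped. The ending _x_at marks probe sets with probes that may also bind other transcripts, and the TRAIL receptor genes resemble each other. The decoy receptor gene TNFRSF10D read 147.24, 144.84 and 128.76 with ICG-001 at 6 h, against 148.86, 139.42 and 128.80 with DMSO, and these arrays overlapped. The other decoy receptor gene, TNFRSF10C, was dim, at 20.37, 21.27 and 21.42 with ICG-001 at 6 h, against 16.44, 11.20 and 18.57 with DMSO. Its ICG-001 arrays lay above its DMSO arrays (log2 change 0.22 ± 0.18, adjusted p = 0.641 in limma's test over all genes). Whether such transcripts add to the TNFRSF10B readings was not tested.

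CTNNB1 siRNA was not accompanied by a clear difference in TNFRSF10B. Probe set 209294_x_at read 277.66 and 244.35 with CTNNB1 siRNA, against 261.92 and 227.07 with control siRNA, and the arrays overlapped (log2 change 0.06 ± 0.08). Probe set 210405_x_at read 274.30 and 240.73 with CTNNB1 siRNA, against 278.13 and 276.79 with control siRNA. The 2 probe sets thus stood on opposite sides of 0, at 0.06 and -0.13. With DMSO alone, TNFRSF10B was slightly lower at 24 h than at 6 h (-0.16 ± 0.07 and -0.28 ± 0.08 for the probe sets in the order given), and the arrays did not overlap.

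**Figure D1:**
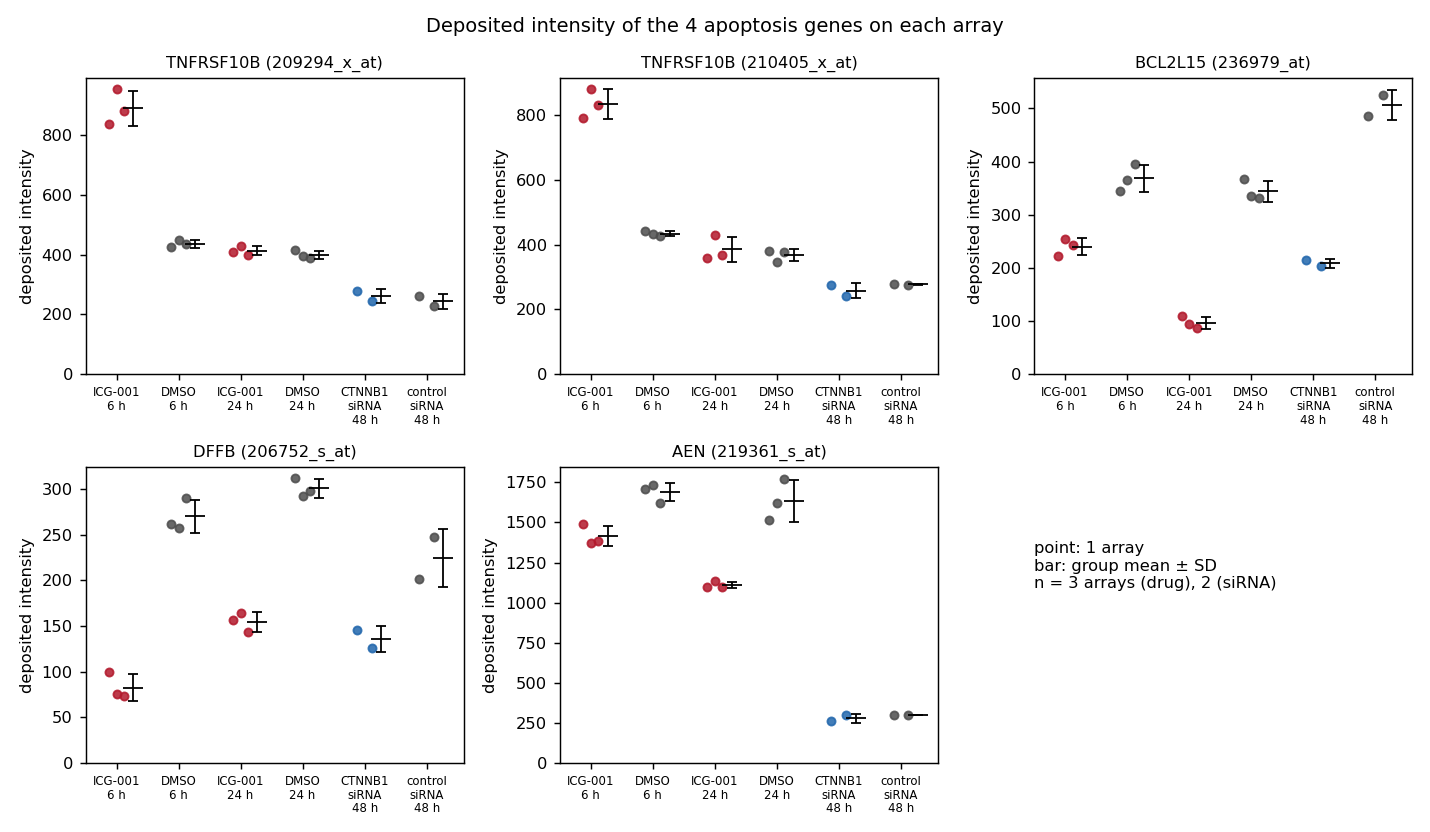
Deposited intensity (vertical axes, linear, from 0) of the 5 probe sets of TNFRSF10B, BCL2L15, DFFB and AEN in the 6 groups, with each array as a point and the group mean ± SD as a bar (n = 3 arrays with ICG-001 or DMSO, 2 with siRNA). TNFRSF10B stands out at 6 h with ICG-001, BCL2L15 is lowest at 24 h with ICG-001, DFFB is lowest at 6 h with ICG-001, and AEN is far lower on the siRNA arrays.

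BCL2L15 was lower with ICG-001 at both times and lower with CTNNB1 siRNA. At 6 h its probe set 236979_at read 223.05, 253.87 and 243.00 with ICG-001, against 344.74, 364.80 and 395.74 with DMSO. At 24 h it read 109.05, 94.35 and 86.56 with ICG-001, against 366.77, 334.51 and 331.91 with DMSO. The groups did not overlap at either time, and the gap was wider at 24 h. The log2 change was -0.73 ± 0.10 at 6 h and -1.96 ± 0.10 at 24 h, and -0.59 ± 0.09 and -1.68 ± 0.09 in the deposited scaling. The change at 24 h thus differed from that at 6 h by -1.22 ± 0.13 on the log2 scale. At 24 h BCL2L15 ranked 19 of 5250 genes counted from the largest fall, and at 6 h it ranked 105.

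In the knockdown BCL2L15 read 214.57 and 202.91 with CTNNB1 siRNA, against 486.79 and 525.95 with control siRNA. Both CTNNB1 siRNA arrays lay far below both control arrays, with a log2 change of -1.13 ± 0.12 (-1.22 ± 0.11 in the deposited scaling). This ranked 34 of 5250 from the largest fall. CTNNB1 itself was not analysed here, so the knockdown was not checked on its target. With DMSO alone BCL2L15 was 344 ± 19.4 at 24 h and 368 ± 25.7 at 6 h (mean ± SD, n = 3), and these arrays overlapped.

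DFFB was lowest at 6 h with ICG-001 and less low at 24 h. Its probe set 206752_s_at read 99.35, 75.11 and 72.98 with ICG-001 at 6 h, against 261.99, 257.41 and 290.53 with DMSO. The 24 h arrays read 156.68, 163.88 and 142.88 with ICG-001, against 311.62, 292.57 and 297.19 with DMSO. All ICG-001 arrays lay below all DMSO arrays at both times. The log2 change was -1.73 ± 0.12 at 6 h, rank 4 of 5250 from the largest fall, and -1.10 ± 0.12 at 24 h, rank 110. In the deposited scaling it was -1.55 ± 0.11 and -0.89 ± 0.11. The change at 24 h differed from that at 6 h by 0.63 ± 0.16, the opposite direction to BCL2L15.

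DFFB was also lower with CTNNB1 siRNA, at 145.68 and 125.78, against 201.82 and 246.95 with control siRNA. The arrays did not overlap, and the log2 change was -0.58 ± 0.14 (-0.66 ± 0.13 in the deposited scaling). With DMSO alone it read higher at 24 h than at 6 h on every array, by a log2 change of 0.12 ± 0.12. The ending _s_at, which DFFB and AEN share, marks probe sets that read several transcripts, so a change of 1 transcript form would not be seen apart from the others.

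AEN was modestly lower with ICG-001, and the size depended on the scaling. Its probe set 219361_s_at read 1489.57, 1372.00 and 1386.50 with ICG-001 at 6 h, against 1709.20, 1736.83 and 1623.91 with DMSO. The 24 h arrays read 1096.27, 1133.12 and 1098.40 with ICG-001, against 1512.72, 1621.35 and 1769.25 with DMSO. The groups did not overlap at either time. The log2 change was -0.66 ± 0.07 at 6 h and -0.99 ± 0.07 at 24 h, and only -0.25 ± 0.07 and -0.55 ± 0.07 in the deposited scaling. The change at 24 h differed from that at 6 h by -0.34 ± 0.09 (-0.30 ± 0.09 in the deposited scaling).

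AEN barely differed in the knockdown, at 260.22 and 299.47 with CTNNB1 siRNA, against 299.97 and 297.22 with control siRNA. The deposited values overlapped and the normalised ones did not, and the log2 change was -0.11 ± 0.08. All 4 siRNA arrays were far below all 12 drug arrays. Every deposited probe set has an SD of at least 0.40 times its mean across the 16 arrays. For AEN this ratio was 0.484 across all arrays and 0.169 across the drug arrays alone, so it lies in the deposited selection through the gap between the experiments. Time, transfection and experiment cannot be told apart in that gap.

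**Figure D2:**
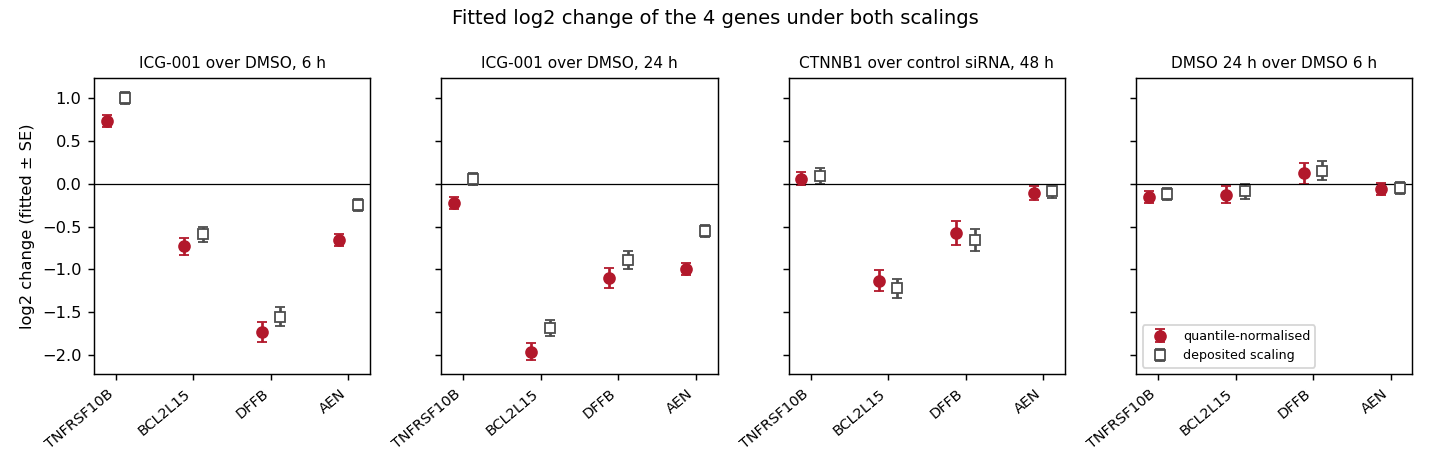
Fitted log2 change ± SE (vertical axis) of the 4 genes in 4 comparisons, after quantile normalisation (filled circles) and in the deposited scaling (open squares). BCL2L15 and DFFB lie below 0 with ICG-001 and with CTNNB1 siRNA under both scalings, and TNFRSF10B at 24 h lies at -0.23 and 0.05.

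Over the 4 genes, with 209294_x_at for TNFRSF10B, deposited intensities did not overlap between ICG-001 and DMSO at 6 h for 4, of which 1 was higher and 3 lower. Of the 5250 genes, 26.4% had no overlap at 6 h, with 15% higher and 11.4% lower. At 24 h there was no overlap for 3 of the 4, all lower, where 32.7% of all genes had none, with 21% higher and 11.7% lower. They did not overlap between CTNNB1 and control siRNA for 2, BCL2L15 and DFFB, both lower, where 44.2% of all genes had none, with 23.8% higher and 20.4% lower. Between DMSO at 24 h and at 6 h the groups of 2 genes did not overlap, DFFB higher and TNFRSF10B lower, where 21.8% of all genes had none, with 11.6% higher and 10.2% lower. Nothing is read from these shares, since the genes were chosen on such differences.

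Across the 6 groups the order of normalised log2 levels differed from gene to gene. TNFRSF10B was highest with ICG-001 at 6 h (9.62 ± 0.09, SD), then with DMSO at 6 h (8.89), DMSO at 24 h (8.74), ICG-001 at 24 h (8.51), CTNNB1 siRNA (8.36) and control siRNA (8.31), and of these neighbours only the siRNA groups overlapped. BCL2L15 was highest with control siRNA (9.24 ± 0.10), followed by DMSO at 6 h (8.61) and DMSO at 24 h (8.48), which overlapped, then by CTNNB1 siRNA (8.11), ICG-001 at 6 h (7.87) and ICG-001 at 24 h (6.53). In the deposited intensities both CTNNB1 siRNA arrays (214.57 and 202.91) instead lay below all ICG-001 arrays at 6 h (223.05, 253.87 and 243.00). Between the drug and siRNA experiments, treatment, time and experiment cannot be told apart. On either scale the 3 groups that had received the drug or the CTNNB1 siRNA were its 3 lowest.

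The same 3 groups were the lowest for DFFB, in another order. DMSO at 24 h (8.27), control siRNA (8.20) and DMSO at 6 h (8.15) overlapped with their neighbours. After normalisation CTNNB1 siRNA (7.61), ICG-001 at 24 h (7.17) and ICG-001 at 6 h (6.41) followed without overlap. In the deposited intensities CTNNB1 siRNA (145.68 and 125.78) overlapped with ICG-001 at 24 h (156.68, 163.88 and 142.88). AEN ran from DMSO at 6 h (10.92) and DMSO at 24 h (10.86), which overlapped, through ICG-001 at 6 h (10.26) and at 24 h (9.87) to control siRNA (8.55) and CTNNB1 siRNA (8.44).

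Over the 12 drug arrays, BCL2L15 and AEN varied most alike among the 4 genes (Pearson r = 0.94), and TNFRSF10B and DFFB ran in opposite directions (r = -0.62). These arrays share 4 groups, so r mostly reflects group means. The 3 genes of the whole table most like BCL2L15 were GINS2 (r = 0.995), a subunit of the replicative helicase, PSMC3 (0.994), a proteasome subunit, and MMP7 (0.993), a matrix metalloproteinase. Those most like AEN were ORC1 (0.994), an origin recognition subunit, DSCC1 (0.994), which acts in sister chromatid cohesion, and SLF1 (0.992). DFFB varied most like PLEKHA7 (0.980), SYNM (0.980) and ADAMTS15 (0.973). TNFRSF10B varied most like the translation initiation factor gene EIF1 (0.970), the spermine oxidase gene SMOX (0.968) and CHMP4C (0.957). Over all 16 arrays r was lower for each of these pairs, from 0.953 (BCL2L15 with MMP7) down to 0.42 (DFFB with ADAMTS15).

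Further genes of the pathway were taken from lists of 143 genes besides the 4, of which 38 were among the genes analysed. The deposited table holds only probe sets that varied over the arrays, and a treatment effect adds to that variation, so counts of these 38 do not describe whole pathways. The lists were also drawn up with earlier results of these arrays known, so the counts are a description. A gene was called at an adjusted p under 0.05 in limma's moderated test with Benjamini-Hochberg adjustment over all 5250 genes. At 6 h with ICG-001, 16 of the 38 rose and 1 fell, where 13.8% of all genes were called, 5.56% higher and 8.23% lower. At 24 h, 16 rose and 9 fell, where 20.5% of all genes were called, 9.22% higher and 11.3% lower. In the deposited scaling 17 rose and 0 fell at 6 h, and 19 rose and 7 fell at 24 h, where 12.4% and 21.4% of all genes were called. Their median log2 change was 0.28 at 6 h and 0.06 at 24 h, against -0.02 at both times over all genes. Genes with adjusted p-values below are called by this test. At each time 12 of the rises were genes of a broader stress list named for ATF4 and CHOP, which also holds ERN1 and XBP1. XBP1, named after its values were seen, is counted there with 0.40 ± 0.05 at 6 h and 0.22 ± 0.05 at 24 h. As the mean of its probe sets it was not called at 6 h (0.33, adjusted p = 0.0687) or 24 h (-0.09, adjusted p = 0.705).

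Among the 6 other death ligand and receptor genes analysed, 2 rose and 0 fell at 6 h, and 1 rose and 3 fell at 24 h. Of the 2 genes of the receptor complex list, 0 were called at 6 h and both fell at 24 h, 1 of them also in the deposited scaling. These, named after their values were seen, were PIDD1 (-0.56 ± 0.13, adjusted p = 0.00353), not called with 1 added before log2 (adjusted p = 0.302), and FAF1 (-0.50 ± 0.15, adjusted p = 0.0174). FAF1 was not called in the deposited scaling (-0.42, adjusted p = 0.0603) or with 64 added (adjusted p = 0.0552). Leaving out replicate 2 of ICG-001 at 24 h gave FAF1 -0.49 (adjusted p = 0.0507), and leaving out replicate 3 of DMSO at 24 h gave -0.43 (adjusted p = 0.0804). The ligand gene TNFSF10, which encodes TRAIL, was dim, at 20.73, 18.53 and 33.00 with ICG-001 at 24 h, against 37.36, 41.19 and 63.20 with DMSO. The ICG-001 arrays lay below the DMSO arrays, and its log2 change was -0.70 ± 0.19 (adjusted p = 0.0101). Leaving out ICG-001 24 h replicate 2 ended the call (-0.56, adjusted p = 0.0642), as did leaving out DMSO 24 h replicate 3 (-0.53, adjusted p = 0.0737). At 6 h TNFSF10 stood at -0.34 ± 0.19 (adjusted p = 0.385). The decoy receptor genes TNFRSF10D (-0.64 ± 0.16, adjusted p = 0.00567) and TNFRSF10C (-0.74 ± 0.18, adjusted p = 0.00347), named after their values were seen, fell at 24 h as well. TNFRSF10C was dim, at 11.46, 10.77 and 10.75 with ICG-001, against 39.80, 32.19 and 17.26 with DMSO.

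The death receptor gene TNFRSF25 rose by 1.07 ± 0.10 at 24 h (adjusted p = 6.89e-08), with 934.22, 928.70 and 940.19 with ICG-001, against 393.39, 417.09 and 304.16 with DMSO. No array overlapped. At 6 h it rose by 0.38 ± 0.10 (adjusted p = 0.0122; deposited scaling 0.63), a call that ended without ICG-001 6 h replicate 2 (0.34, adjusted p = 0.0669) or DMSO 6 h replicate 2 (0.30, adjusted p = 0.0918). TNFSF15, a ligand of that receptor named after its value was seen, rose at 6 h by 0.28 ± 0.05 (adjusted p = 0.000344; deposited scaling 0.80). At 24 h TNFSF15 stood at -0.07 ± 0.05 (adjusted p = 0.423), and at 0.52 with the deposited scaling (adjusted p = 1.42e-07). The receptor TNFRSF10A and the initiator caspase gene CASP8 were not analysed here.

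Of the 3 anti-apoptotic BCL2 genes analysed, 1 rose at each time and 2 in the deposited scaling, and these are named after their values were seen. MCL1, which holds mitochondrial cell death in check, rose at 6 h by 0.55 ± 0.07 (adjusted p = 8.53e-06), with 941.56, 872.93 and 853.43 with ICG-001, against 483.44, 529.68 and 483.31 with DMSO. All ICG-001 arrays lay above the DMSO arrays. At 24 h MCL1 stood at 0.07 ± 0.07 (adjusted p = 0.619), and at 0.31 in the deposited scaling (adjusted p = 0.00265). BCL2 stood at 0.51 ± 0.18 at 6 h (adjusted p = 0.0832), and was called there in the deposited scaling (0.55, adjusted p = 0.04). BCL2 rose at 24 h by 0.62 ± 0.18 (adjusted p = 0.0197), a call that ended when any of 4 arrays was left out, as without ICG-001 24 h replicate 2 (0.46, adjusted p = 0.138), DMSO 24 h replicate 2 (0.55, adjusted p = 0.0884), DMSO 24 h replicate 1 (0.55, adjusted p = 0.0836) or ICG-001 24 h replicate 3 (0.63, adjusted p = 0.0504). Of the 3 BH3-only and BNIP genes, 0 were called at 6 h and 1 fell at 24 h. Named after its value was seen, that gene was BAD, a sensitiser to mitochondrial cell death (-0.75 ± 0.26, adjusted p = 0.0489). The BAD call ended in 5 of the 6 fits that left out 1 array: without ICG-001 24 h replicate 2 (-0.61, adjusted p = 0.202) or 3 (-0.61, adjusted p = 0.198), or without DMSO 24 h replicate 1 (-0.71, adjusted p = 0.123), 2 (-0.72, adjusted p = 0.128) or 3 (-0.80, adjusted p = 0.0757). It also ended with 1 or 64 added before log2 (adjusted p = 0.0501 and 0.06).

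Of 3 genes for inhibitors of apoptosis, 1 fell at 6 h and 2 fell at 24 h, BIRC5 and BIRC7. BIRC7, named here after its value was seen, read 287.37, 280.75 and 278.96 with ICG-001 at 24 h, against 439.36, 359.43 and 340.09 with DMSO. All its ICG-001 arrays were lower, and it fell by 0.62 ± 0.13 (adjusted p = 0.00105; deposited scaling -0.40, adjusted p = 0.0199). BIRC5, which encodes survivin, fell by 1.15 ± 0.05 at 24 h (adjusted p = 2.79e-12), with 1457.96, 1397.57 and 1413.50 with ICG-001, against 2361.31, 2192.88 and 2360.86 with DMSO. All ICG-001 arrays were lower, and its change was -0.69 in the deposited scaling. At 6 h BIRC5 fell by 0.52 ± 0.05 (adjusted p = 2.51e-07), and it stood at -0.10 in the deposited scaling (adjusted p = 0.325). Of the 2 other nuclease genes analysed, 0 were called at 6 h and DNASE1, named after its value was seen, fell at 24 h by 0.28 ± 0.09 (adjusted p = 0.0257). In the deposited scaling DNASE1 stood at -0.10 (adjusted p = 0.528). DFFA, the inhibitor of the DFFB nuclease, was not analysed here.

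**Figure D3:**
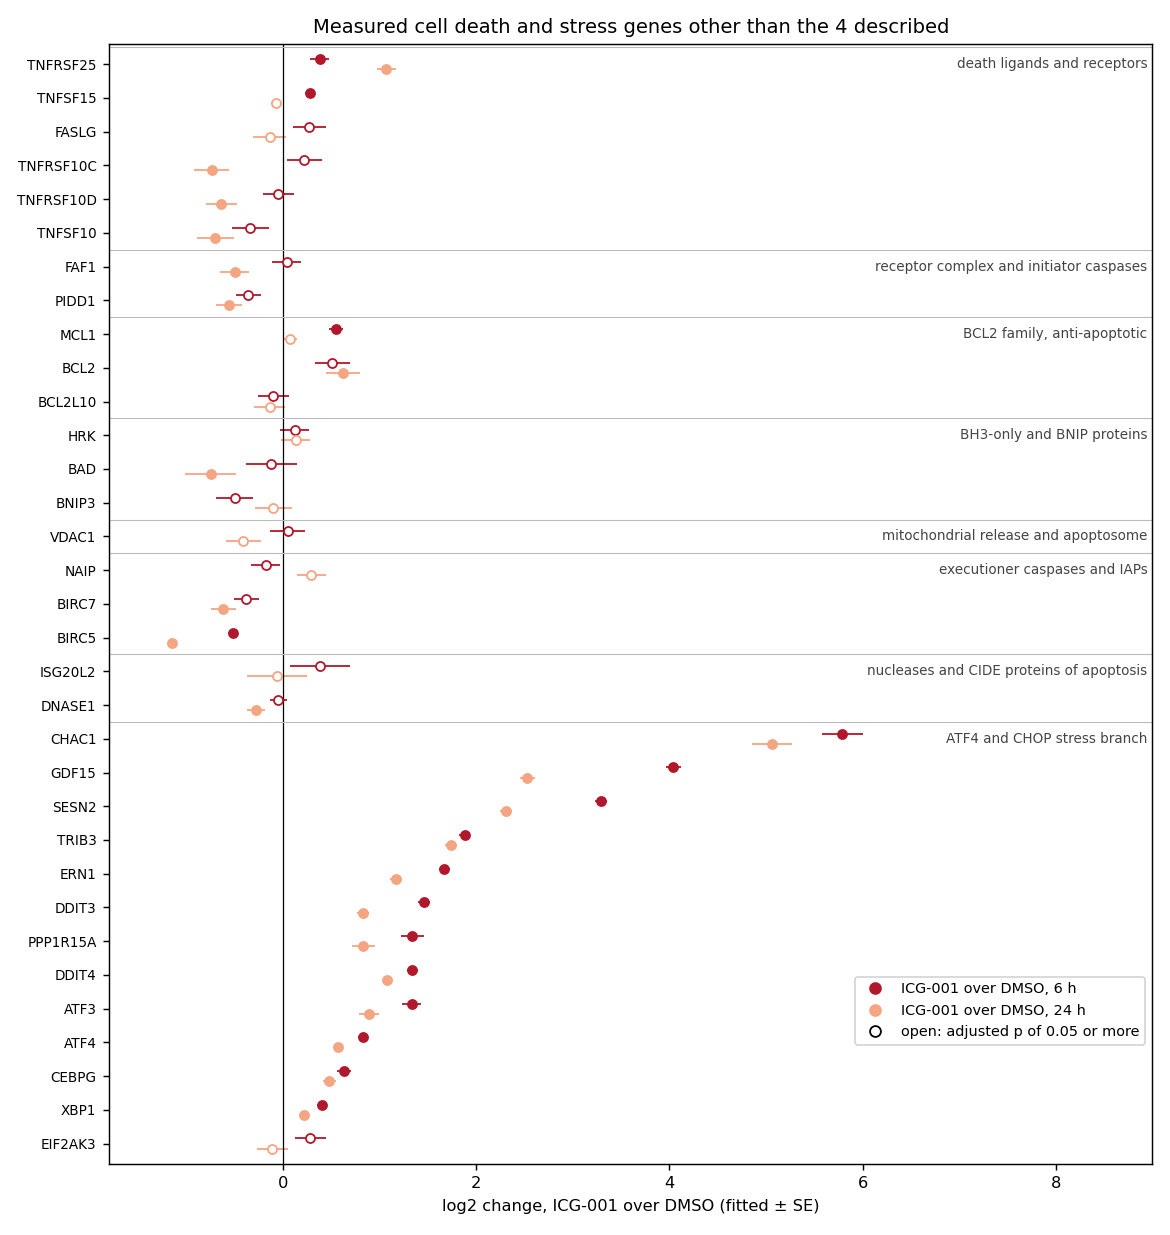
Fitted log2 change ± SE (horizontal axis, ICG-001 over DMSO) of 33 of the 38 further cell death and stress genes, grouped by list, at 6 h (dark) and 24 h (light), with open circles for an adjusted p of 0.05 or more. Of 13 genes of the stress list named for ATF4 and CHOP, 12 rose at each time, while most genes of the other lists lie within 1 log2 unit of 0. The lists were drawn up with earlier results of these arrays known.

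CHOP, a known regulator of TNFRSF10B, was set beside it through the genes of the stress list named for ATF4 and CHOP. DDIT3, which encodes CHOP, read 1765.99, 1767.89 and 1728.87 with ICG-001 at 6 h, against 500.06, 494.27 and 525.35 with DMSO. At 24 h it read 1297.26, 1215.85 and 1219.57 with ICG-001, against 556.84, 594.94 and 507.52 with DMSO. At 24 h DDIT3 was above DMSO on every ICG-001 array. The deposited TNFRSF10B values overlapped with DMSO at that time, while the normalised ones of 209294_x_at were lower. Whether CHOP acted on TNFRSF10B here was not tested. The log2 change of DDIT3 was 1.46 ± 0.06 at 6 h (adjusted p = 1.77e-12) and 0.83 ± 0.06 at 24 h (adjusted p = 2.81e-09). The change at 24 h was smaller (difference -0.63 ± 0.09, adjusted p = 6.44e-05). TRIB3, a pseudokinase gene induced by CHOP, rose by 1.88 ± 0.06 at 6 h (adjusted p = 2.21e-14) and by 1.74 ± 0.06 at 24 h (adjusted p = 3.45e-14).

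The largest rise in this list was that of CHAC1, which encodes a glutathione-degrading enzyme. It read 1354.93, 1369.90 and 1402.64 with ICG-001 at 6 h, against 4.58, 8.31 and 4.78 with DMSO. The 24 h arrays of CHAC1 read 1071.89, 1111.98 and 1005.23 with ICG-001, against 25.05, 7.40 and 6.59 with DMSO. CHAC1 was thus near the bottom of the scale on DMSO arrays, where its log2 changes of 5.79 ± 0.21 (adjusted p = 1.69e-13) and 5.06 ± 0.21 (adjusted p = 7.49e-13) understate the difference because of the 16 added. GDF15, a stress-induced cytokine gene, rose by 4.04 ± 0.08 at 6 h (adjusted p = 2.38e-17) and by 2.53 ± 0.08 at 24 h (adjusted p = 1.87e-14), and SESN2, a stress-induced brake on mTORC1, by 3.29 ± 0.06 (adjusted p = 2.38e-17) and 2.31 ± 0.06 (adjusted p = 3.3e-15). ERN1, DDIT4 and PPP1R15A rose at 6 h by 1.67, 1.34 and 1.34 and at 24 h by 1.17, 1.08 and 0.83, and DDIT4 stood at 1.72 in the deposited scaling at 24 h. The gene of the 13 that was not called, EIF2AK3, which encodes the stress kinase PERK, stood at 0.28 ± 0.16 at 6 h (adjusted p = 0.417) and is named after its value was seen.

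CDKN1A, a CDK inhibitor gene, read 4701.63, 4472.75 and 4423.97 with ICG-001 at 6 h, against 1604.76, 1718.16 and 1762.46 with DMSO, and rose by 0.86 ± 0.08 (adjusted p = 1.85e-07; deposited scaling 1.41). At 24 h it rose by 0.74 ± 0.08 (adjusted p = 8.1e-07; deposited scaling 1.21). MDM2, which encodes a ubiquitin ligase, stood at -0.04 ± 0.08 at 6 h (adjusted p = 0.926) and at -0.23 ± 0.08 at 24 h (adjusted p = 0.0587).

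With CTNNB1 siRNA, 5 of the 38 genes rose and 3 fell, where 12% of all genes were called, 6.19% higher and 5.83% lower. In the deposited scaling 5 rose and 2 fell, where 9.09% of all genes were called. Their median log2 change was 0.06, against 0.01 over all genes. MDM2 fell by 1.01 ± 0.10 (adjusted p = 1.69e-06), with 23.67 and 26.64 with CTNNB1 siRNA, against 60.44 and 68.62 with control siRNA. The mean of its probe sets moved less (-0.37, adjusted p = 0.164). NAIP, an inhibitor of apoptosis gene, rose by 0.97 ± 0.19 (adjusted p = 0.00164), but was not called with only the siRNA arrays in the fit (adjusted p = 0.273). SESN2 rose by 0.39 ± 0.08 (adjusted p = 0.00204) and TNFSF15 fell by 0.30 ± 0.06 (adjusted p = 0.00297), and these were not called in that smaller fit either (adjusted p = 0.409 and 0.101). ERN1, a sensor of endoplasmic reticulum stress, rose by 0.56 ± 0.07 (adjusted p = 2.91e-05), and CDKN1A by 0.52 ± 0.10 (adjusted p = 0.00181). DDIT3 stood at -0.02 ± 0.08 (adjusted p = 0.923). TRIB3 fell by 0.24 ± 0.07 (adjusted p = 0.0338), a call that ended when any of the 4 arrays was left out (adjusted p 0.0683 to 0.136). With the 12 drug arrays left out of the fit, 3 genes were called in place of 8. That smaller fit also chose the brightest probe set of each gene again, so some genes may be read there by another probe set.

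With DMSO alone, 5 of the 38 genes were higher and 5 lower at 24 h than at 6 h, where 8.63% of all genes were called, 4.69% higher and 3.94% lower. The deposited scaling also gave 5 and 5, where 8.23% of all genes were called. BIRC7, an inhibitor of apoptosis gene, rose by 1.08 ± 0.13 (adjusted p = 8.77e-06), and CDKN1A fell by 0.66 ± 0.08 (adjusted p = 1.62e-05). The 4 genes themselves, with 209294_x_at for TNFRSF10B, lay between -0.16 and 0.12 there, and 210405_x_at at -0.28.

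The effect of ICG-001 at 24 h differed from that at 6 h for 10 of the 38 genes by limma's test of the difference, 1 of them upward and 9 downward. Of all genes 7.81% were called in this test, 3.89% higher and 3.92% lower, and 8.86% in the deposited scaling. TNFRSF10B, BCL2L15 and AEN had differences of -0.96, -1.22 and -0.34 there, and DFFB one of 0.63, none of them tested. TRIB3 (-0.14 ± 0.08, adjusted p = 0.448), CDKN1A (-0.12 ± 0.12, adjusted p = 0.756), MDM2 (-0.19 ± 0.12, adjusted p = 0.51) and TNFSF10 (-0.36 ± 0.27, adjusted p = 0.626) were not called.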

How the data were processed

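Total RNA of AsPC-1 cells was labelled with biotin for Affymetrix arrays, per the labels. The deposited values are probe set intensities on a linear scale, and how the authors summarised probes and scaled arrays is not given in the sources used here. Gene names came from the platform annotation, updated to current symbols. Of 9554 probe sets, 6442 had a single gene, 252 several and 2860 none listed. Intensities were turned into log2(intensity + 16) and quantile-normalised over 16 arrays, since array medians differed by 0.64, and the brightest probe set of each of 5250 genes was kept. A model with one term per group was fitted by limma 3.58.1 (R 4.3.3) over all arrays (10 residual and 7.84 prior degrees of freedom, intensity trend, two-sided, Benjamini-Hochberg adjustment over all genes). Tested on simulated data with 200 of 5250 genes changed by a log2 size of 1, the fit recovered 87.5% at 6 h and at 24 h and 72% in the siRNA comparison. Unchanged genes called numbered 6, 13 and 5 in that order. The simulation put independent noise on normalised log2 values and skipped the normalisation, so it does not bear on the choice of scaling. The number of arrays limits the precision. The members and lists were chosen with earlier results of these data known. Genes to name were the 4, up to 8 called list genes with the largest change per comparison, and a fixed set where analysed. The fixed set held DDIT3, CASP8, DFFA, TNFSF10, TNFRSF10A, BIRC5, MDM2, CDKN1A and TRIB3. Not all of these are named in every comparison. The 3 genes most like each of the 4 were named by Pearson r over the drug arrays. Alternatives were other scalings, added numbers, probe set rules, filters, priors, array subsets and a replicate block. Fits on fewer arrays chose the brightest probe set of each gene again. Some items are not reported here.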

Additional observations from a re-analysis of the deposited data

Results flagged for a closer look

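The effect of ICG-001 differed between 24 h and 6 h for 10 of the 38 list genes by limma's test of the difference, adjusted over all genes. The change at 24 h was smaller for the stress genes GDF15 (difference -1.51, adjusted p = 5.08e-08), SESN2 (-0.97, adjusted p = 8.65e-07), DDIT3 (-0.63, adjusted p = 6.44e-05), ERN1 (-0.50, adjusted p = 0.000524) and ATF4 (-0.25, adjusted p = 0.0306). For ATF4 the call ended in 6 of the 12 fits that left out an array, with adjusted p-values of 0.0567 to 0.092 in those 6. MCL1 (-0.48, adjusted p = 0.0037) and TNFSF15 (-0.35, adjusted p = 0.00273) stood at 0.07 and -0.07 at 24 h. With the siRNA arrays left out of the fit, MCL1 was not called (-0.23, adjusted p = 0.204). That fit chose the brightest probe set of each gene again, so it may have read another MCL1 probe set, which was not checked. BIRC5 fell further at 24 h (-0.62, adjusted p = 1.16e-05), and TNFRSF25 rose further (0.70, adjusted p = 0.00288). TNFRSF10C, at -0.74 at 24 h and 0.22 at 6 h, differed by -0.97 (adjusted p = 0.0175), a call that ended without DMSO 24 h replicate 1 (-0.82, adjusted p = 0.0583) or DMSO 6 h replicate 2 (-0.87, adjusted p = 0.0564).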

How the results depend on the processing

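In the deposited scaling TNFRSF10B stood at 1.00 (6 h) and 0.05 (24 h), where the sign turned, BCL2L15 at -0.59 (6 h), -1.68 (24 h) and -1.22 (siRNA), DFFB at -1.55 (6 h) and -0.89 (24 h), and AEN at -0.25 (6 h) and -0.55 (24 h). With median-centred arrays TNFRSF10B stood at 0.99 and -0.08, BCL2L15 at -0.60, -1.81 and -1.22, DFFB at -1.56 (6 h) and AEN at -0.26 and -0.68. With 1 added before log2, BCL2L15 stood at -2.16 (24 h) and DFFB at -1.95 and -1.19. With 64 added, BCL2L15 stood at -1.52 (24 h) and -1.01 (siRNA) and DFFB at -1.30 and -0.89. In the siRNA comparison BCL2L15 stood at -1.24 with quantiles taken within each experiment and at -1.24 with only the arrays compared, and between -1.20 and -1.05 when 1 array was left out. TNFRSF10B stood there at -0.03 as the mean of its probe sets. With only the arrays compared it stood at -0.15, and 3 list genes were called in place of 8. That fit chose the brightest probe set of each gene again. For TNFRSF10B this was 210405_x_at, which stood at -0.13 in the main scaling. The mean of probe sets turned XBP1 at 24 h to -0.09. The cause was not tested. Of 200 values of the 4 genes under alternatives, 164 moved by less than the spread between arrays. Part of that count was fixed, since dropping the intensity trend or dim genes, or adding a replicate block, left fitted changes as they were. The mean of probe sets could not move genes with 1 probe set either. The count thus does not measure stability.

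Equal replicate numbers did not pair the arrays (same-number correlations of -0.15 to 0.09 over 18 drug pairs). With a replicate block the calls over all genes numbered 734 at 6 h (724 without), 1093 at 24 h (1076), 656 with siRNA (631), 467 for DMSO over time (453) and 426 for the difference between times (410). Among the list genes named, the block ended the calls of BAD at 24 h (adjusted p = 0.0591) and of TRIB3 with siRNA (adjusted p = 0.0527). It added calls of TNFSF10 for DMSO over time (adjusted p = 0.0489) and of TNFRSF10D for the difference between times (adjusted p = 0.0392).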
